A study of Homo sapiens with 36 samples.

Results

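The NRF2 target antioxidant genes are a set of 10 genes, HMOX1, NQO1, GCLM, GCLC, SRXN1, TXNRD1, SLC7A11, OSGIN1, FTH1 and FTL. They were chosen by gene symbol from the annotation of the array's probes, keeping for each gene the brightest probe with a detection p under 0.05 on at least 3 arrays. By this rule 8 of the 10 were measured, among 13582 genes tested in all; no probe was named for OSGIN1 or FTH1, which were not analysed here. The samples were THP-1 cells, a human monocytic leukaemia line used as a model of monocytes, macrophages and microglia, so all values come from 1 line. Cells received vehicle (control), the HIV envelope glycoprotein gp120 of strain SF162 at 1 nM, or bacterial lipopolysaccharide (LPS) at 1 µg/ml, for 4 h or 24 h. A second set received the p38 kinase inhibitor SB203580 (SB) at 10 µM for 15 min first, then vehicle (SB), gp120 (SB+gp120) or LPS (SB+LPS). The vehicles were 0.1% DMSO for the inhibitor and 0.001% BSA for gp120. Each of the 12 groups had 3 arrays.

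NRF2, encoded by NFE2L2, is the main transcription factor of the antioxidant response. In resting cells KEAP1 holds it in the cytoplasm and has it degraded. When electrophiles or oxidants modify KEAP1, NRF2 accumulates, pairs with a small MAF protein and binds antioxidant response elements near its target genes, several of which the repressor BACH1 occupies otherwise. In monocytes and macrophages these targets cover heme and iron handling (HMOX1 breaks down heme, FTL and FTH1 are the ferritin chains), glutathione (SLC7A11 imports cystine, GCLC and GCLM form the rate-limiting ligase), thioredoxin and peroxiredoxin recycling (TXNRD1, SRXN1) and quinone reduction (NQO1).

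The 250 bases before the annotated start were searched on both strands for the core of the antioxidant response element, spelled TGACNNNGC or TGAGNNNGC. The sequences are those of RefSeq on GRCh38.p14. HMOX1, SLC7A11 and FTH1 were not searched here. Of the 8 promoters of the other 7 member genes (TXNRD1 has 2 starts), 5 held a match (62.5%), against 23.95% of the 35116 promoters in the table. GCLM, TXNRD1, NQO1 and OSGIN1 had a match and GCLC, FTL and SRXN1 had none. A match is a string of letters in this window and not a measured binding site. The 4 matching promoters of measured genes are printed 5′ to 3′ on the gene's strand, with the matches in capitals, because these genes changed with LPS or time and differ in where the match lies. It is 34 to 26 bases before the start in GCLM, 99 to 91 and 102 to 94 in the TXNRD1 promoters, the second of which has another at 198 to 190, and 119 to 111 in NQO1.
GCLM, chr1:93909431-93909680, minus strand: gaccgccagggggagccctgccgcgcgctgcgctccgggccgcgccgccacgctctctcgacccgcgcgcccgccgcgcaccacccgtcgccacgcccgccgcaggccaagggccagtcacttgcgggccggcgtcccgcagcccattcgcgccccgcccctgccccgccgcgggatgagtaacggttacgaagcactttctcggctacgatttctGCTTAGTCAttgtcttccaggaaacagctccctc
TXNRD1, first start, chr12:104215529-104215778, plus strand: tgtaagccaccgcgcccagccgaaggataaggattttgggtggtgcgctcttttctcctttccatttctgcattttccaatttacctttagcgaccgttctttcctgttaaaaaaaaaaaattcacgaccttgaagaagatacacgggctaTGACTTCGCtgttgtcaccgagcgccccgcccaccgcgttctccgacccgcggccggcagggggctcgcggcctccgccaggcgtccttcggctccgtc
TXNRD1, second start, chr12:104286782-104287031, plus strand: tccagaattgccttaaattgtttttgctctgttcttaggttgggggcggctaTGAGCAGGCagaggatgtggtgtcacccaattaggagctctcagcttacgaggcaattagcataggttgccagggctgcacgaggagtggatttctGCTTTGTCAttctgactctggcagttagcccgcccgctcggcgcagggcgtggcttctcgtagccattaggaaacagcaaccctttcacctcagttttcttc
NQO1, chr16:69726561-69726810, minus strand: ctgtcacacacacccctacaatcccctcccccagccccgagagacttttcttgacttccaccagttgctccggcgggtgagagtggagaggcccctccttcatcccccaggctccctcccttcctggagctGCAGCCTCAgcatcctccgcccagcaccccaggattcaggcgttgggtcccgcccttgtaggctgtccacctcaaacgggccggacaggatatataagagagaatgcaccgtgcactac

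The 36 arrays had mean raw intensities of 403 to 1572, and 34.8 to 44.4% of probes were detected. At 4 h the 6 arrays with LPS ranged from 403 to 819 and the 12 without from 648 to 1214. LPS replicate 1 (457) and SB+LPS replicate 1 (403) were the dimmest. Without both, the count of members called was the same in LPS against control at both times and in SB+LPS against LPS or SB. It was also the same in the LPS response by time and in control between times. The 24 h comparisons and control between times hold neither array. Between times, GCLC in LPS (-0.66, adjusted p = 0.057, limma) and HMOX1 in SB+LPS (-2.60, adjusted p = 0.054) lost their calls without both. The monocytic genes SPI1, LYZ, CEBPA, ITGAM, CSF1R and FCGR2A were detected on all 36 arrays and MPO on 15, while CD3E, CD8A and KRT19, of T cells and epithelium, were detected on 0, and EPCAM, KRT18, MS4A1, HBB, CD3D and CD79A, of epithelium, B cells, red cells and T cells, on 2 to 31. Arrays lay on 3 slides of 12. The 24 h groups given vehicle or 1 agent filled slide 1. Slide 2 carried the 24 h groups given the inhibitor with gp120 or LPS, together with the control and gp120 groups of 4 h, and slide 3 the remaining 4 h groups. LPS and control therefore shared a slide at 24 h but not at 4 h. At 4 h, samples with the same replicate number deviated together in all 6 comparisons examined (correlations of 0.12 to 0.70), so values with the replicate number as a block are given there beside the main ones. The labels call the samples biological replicates and name no separate cultures or days, so p-values measure the spread between these samples.

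Levels are log2 normalised intensities and are compared within a gene only. All 8 measured members were highest in LPS at 4 h, and 6 of them spanned over 2 units between their highest and lowest group. HMOX1 had the widest range, with group means from 5.88 in gp120 at 24 h to 13.52 in LPS at 4 h. SRXN1 spanned 4.35, GCLM 3.53, SLC7A11 3.35, TXNRD1 3.34 and NQO1 2.20. GCLC spanned 1.31. FTL spanned 0.40, and its raw intensity reached 95.9% of the highest value of any probe, so the scanner scale left little room above it. Over the 12 group means all 28 pairs of members had a correlation above 0 (median 0.85, from 0.29 for GCLM with FTL to 0.98 for GCLM with SRXN1), as a description of points that share arrays.

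**Figure D1:**
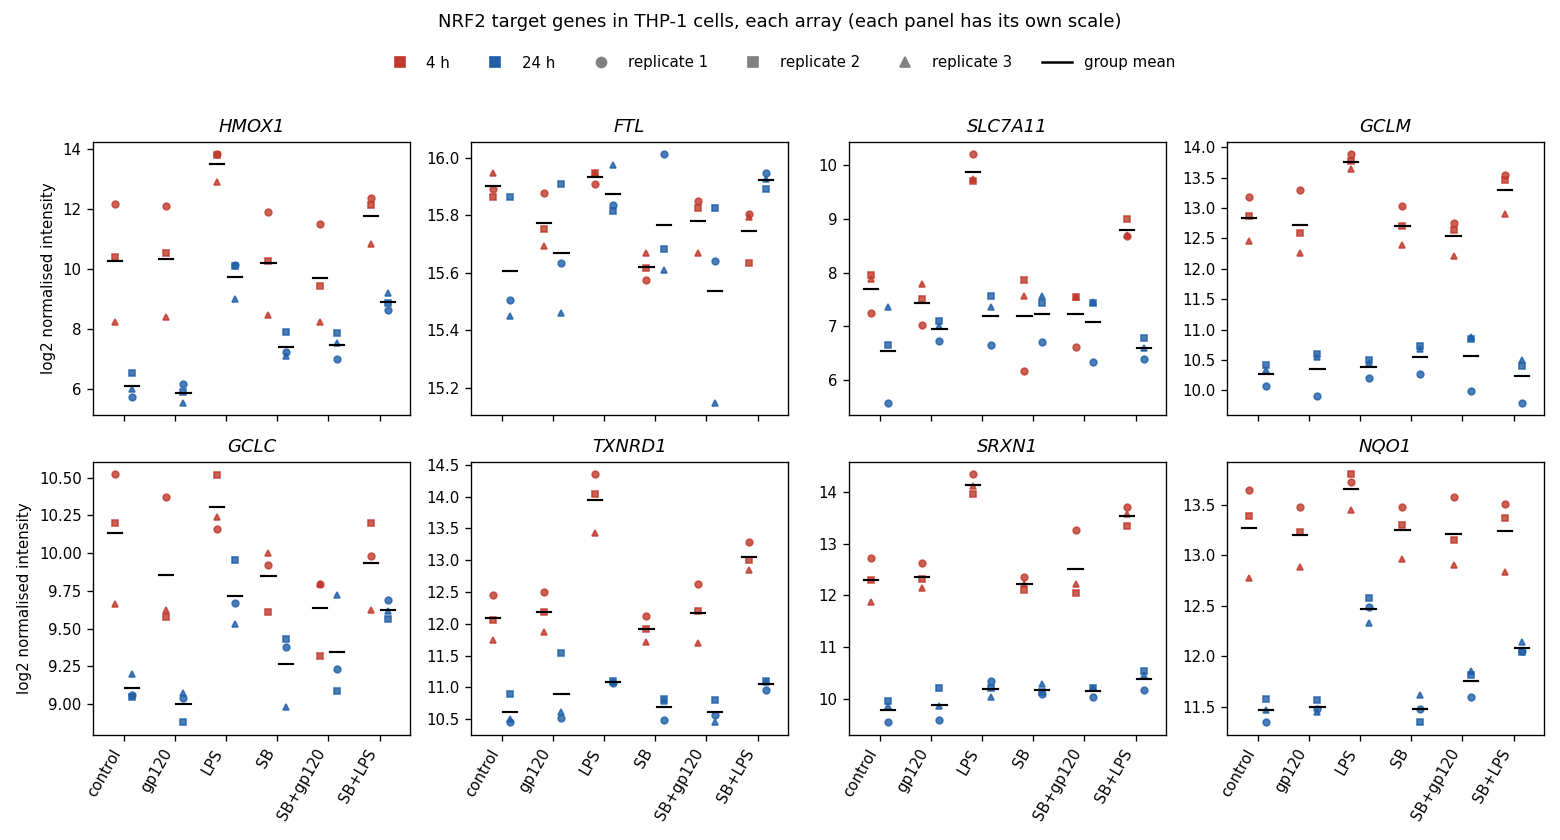
Log2 normalised intensity (vertical axis) of the 8 measured genes on each of 36 arrays, by treatment (horizontal axis) and time (red 4 h, blue 24 h); the marker shape is the replicate number and the bar the group mean. The LPS group at 4 h has the highest mean in each panel, and the HMOX1 points of the 4 h groups without LPS are spread over more than 3 units.

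After 4 h of LPS, 5 of the 8 members were higher than in control (10.5% of all 13582 genes were called higher). HMOX1, the stress-inducible heme oxygenase, rose most. Its levels were 13.83, 13.82 and 12.90 in LPS against 12.19, 10.41 and 8.26 in control. The groups did not overlap, as in 5 of 8 members (38.8% of all genes), but control alone covered nearly 4 units. HMOX1 rose by 3.24 (SE 0.83, adjusted p = 0.0044, limma with Benjamini-Hochberg adjustment over all genes), a 9.42-fold difference. FTL, the ferritin light chain, was at 15.91, 15.95 and 15.95 with LPS and 15.89, 15.86 and 15.95 without, a difference of 0.03 (SE 0.15, adjusted p = 0.89).

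The cystine carrier and the ligase subunits that feed glutathione synthesis differed in size. SLC7A11, which brings in the cystine, read 10.20, 9.70 and 9.74 in LPS and 7.24, 7.95 and 7.88 in control at 4 h. All 3 LPS arrays lay above every control array, and the gene rose by 2.19 (SE 0.40, adjusted p = 0.00013). GCLM, the modifier subunit, was 13.88, 13.77 and 13.64 against 13.18, 12.87 and 12.45, again without overlap. It rose by 0.93 (SE 0.27, adjusted p = 0.010). GCLC, the catalytic subunit, was 10.16, 10.52 and 10.24 against 10.52, 10.20 and 9.66. These groups overlapped, and the difference of 0.17 (SE 0.22) had an adjusted p of 0.59.

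Both members of thioredoxin and peroxiredoxin recycling rose by similar amounts at 4 h. TXNRD1, the cytosolic thioredoxin reductase, read 14.36, 14.04 and 13.43 in LPS and 12.46, 12.07 and 11.75 in control. It was 3.61-fold higher (1.85, SE 0.25, adjusted p = 2.2e-06). SRXN1, the sulfiredoxin that repairs over-oxidised peroxiredoxins, read 14.34, 13.95 and 14.12 in LPS and 12.73, 12.29 and 11.88 in control. It was 3.58-fold higher (1.84, SE 0.23, adjusted p = 6.1e-07), and in both genes every LPS array was above every control array. NQO1, the quinone reductase, read 13.72, 13.80 and 13.45 against 13.65, 13.38 and 12.77, which overlapped, with a difference of 0.39 (SE 0.20, adjusted p = 0.15).

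With the replicate number as a block, 6 of 8 members were called higher at 4 h (13.5% of genes), NQO1 being the addition (0.39, SE 0.12, adjusted p = 0.013), and HMOX1 had an SE of 0.40. LPS and control at 4 h lie on different slides: with slide as a block 0 of 8 were called (3.13% of genes either way), with HMOX1 at 4.59 (adjusted p = 0.15), SLC7A11 at 2.04, SRXN1 at 1.15, GCLM at 1.02 and TXNRD1 at 0.71. When each array was instead scaled to the same median, without quantile normalisation, the median of all genes moved from -0.09 to -0.71 and 4 members were called (47.7% of genes either way). HMOX1 was then 2.56, SLC7A11 1.31, and SRXN1 and TXNRD1 1.20 each, while GCLM was 0.28 (adjusted p = 0.40). Without control replicate 3, which had the lowest HMOX1, 3 members were called and HMOX1 was 2.22 (adjusted p = 0.063) and GCLM 0.74 (adjusted p = 0.075), and without LPS replicate 1 GCLM was 0.87 (adjusted p = 0.050). Without control replicate 1 NQO1 was called as well (0.58, adjusted p = 0.049). The part of array signal and slide in the 4 h differences was not tested further.

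After 24 h of LPS, HMOX1 and NQO1 were higher than in control, 2 of the 8 members (6.6% of all genes were called higher), and here both groups lay on slide 1. HMOX1 read 10.15, 10.10 and 9.00 in LPS and 5.74, 6.55 and 6.00 in control. The gap between the groups was over 2 units, and the rise was 3.65 (SE 0.83, adjusted p = 0.0025), or 12.6-fold. NQO1 read 12.49, 12.58 and 12.33 against 11.35, 11.58 and 11.47, also without overlap. It rose by 1.00 (SE 0.20, adjusted p = 0.00067), or 2.00-fold. Both calls were kept in all 18 alternatives run. Some of these could not change the difference, such as slide as a block, since both groups lay on slide 1. HMOX1 was 2.37 without background correction and 2.48 in the authors' log2 values.

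The other 6 members did not pass the test at 24 h, though all 8 differences were above 0. GCLC read 9.67, 9.95 and 9.53 in LPS and 9.06, 9.05 and 9.20 in control. The groups did not overlap (0.61, SE 0.22, adjusted p = 0.067), as in 5 of 8 members at 24 h (34.8% of all genes). TXNRD1 read 11.06, 11.09 and 11.08 against 10.46, 10.90 and 10.50 (0.46, adjusted p = 0.29). SRXN1 read 10.35, 10.21 and 10.03 against 9.55, 9.97 and 9.85 (0.40, adjusted p = 0.32), so that both recycling enzymes kept a gap between the groups that was small beside their 4 h difference. GCLM read 10.20, 10.50 and 10.45 against 10.07, 10.42 and 10.33 (0.11, 95% interval -0.44 to 0.66). SLC7A11 was at 0.66 (interval -0.15 to 1.47) and FTL at 0.27 (interval -0.04 to 0.58).

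**Figure D2:**
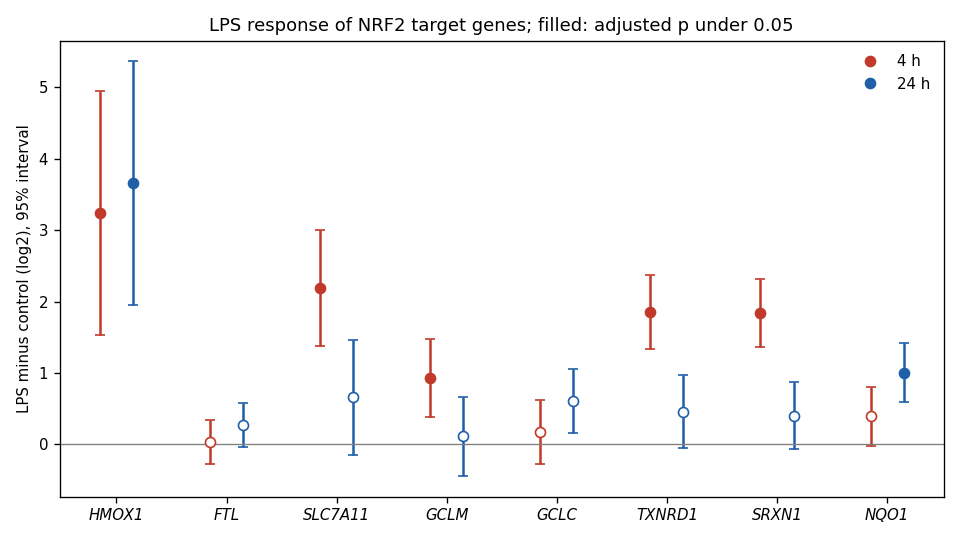
LPS minus control in log2 units (vertical axis) for each gene at 4 h (red) and 24 h (blue), with 95% intervals from the fit over all groups; filled points have an adjusted p under 0.05. HMOX1 lies above 3 at both times, NQO1 is filled at 24 h, and SLC7A11, GCLM, TXNRD1 and SRXN1 are filled at 4 h.

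The change of the LPS difference between the times was tested directly as an interaction. It was lower at 24 h than at 4 h in 2 of 8 members (4.87% of genes), SRXN1 by -1.43 (SE 0.33, adjusted p = 0.0037) and TXNRD1 by -1.39 (SE 0.36, adjusted p = 0.0098). SLC7A11 was at -1.53 (adjusted p = 0.072), GCLM at -0.82 (adjusted p = 0.17), NQO1 at 0.61 (adjusted p = 0.17) and HMOX1 at 0.42 (interval -1.99 to 2.83). With the replicate block 5 of 8 were called (20.4% of genes either way), SLC7A11 and GCLM also lower at 24 h and NQO1 higher (0.61, adjusted p = 0.012), although the replicate numbers did not pair LPS with control at 24 h. With equal medians the calls of SRXN1 (-0.82, adjusted p = 0.19) and TXNRD1 (-0.78, adjusted p = 0.23) were lost and NQO1 was called higher at 24 h (1.23, adjusted p = 0.034), 1 of 8 members (11.2% of genes). With slide as a block 0 of 8 were called (0.854% of genes), SRXN1 being at -0.75 and TXNRD1 at -0.24. SLC7A11 passed without background correction (-1.38, adjusted p = 0.0018), with the authors' log2 values (-1.41, adjusted p = 0.0025) and without control replicate 1 of 24 h (-2.01, adjusted p = 0.016), and NQO1 without control replicate 3 of 4 h (0.86, adjusted p = 0.044).

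SB+LPS was compared with LPS at 4 h, both on slide 3, to show how the members respond when p38 is inhibited before LPS. All 8 differences were below 0, and in 6 of 8 members the groups did not overlap (13.7% of all genes). HMOX1 read 12.38, 12.14 and 10.85 in SB+LPS against 13.83, 13.82 and 12.90 in LPS, a difference of -1.73. TXNRD1 read 13.29, 13.01 and 12.84 against 14.36, 14.04 and 13.43, a difference of -0.89. SLC7A11 read 8.68, 9.00 and 8.71 against 10.20, 9.70 and 9.74, a difference of -1.08. In these 3 genes every SB+LPS array was below every LPS array. SRXN1 (13.70, 13.33 and 13.57 against 14.34, 13.95 and 14.12) and GCLM (13.55, 13.45 and 12.91 against 13.88, 13.77 and 13.64) were also apart, by -0.60 and -0.46. FTL was apart by a small step, at 15.80, 15.63 and 15.79 against 15.91, 15.95 and 15.95. NQO1 overlapped, at 13.50, 13.37 and 12.83 against 13.72, 13.80 and 13.45.

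In the fit without a block, 0 of 8 members passed the limma test (2.16% of genes did), with 5 members at an unadjusted p under 0.05 and the lowest adjusted p, that of TXNRD1, at 0.056. The replicate numbers pair these samples (every same-numbered pair correlated at 0.37 or more), and with the replicate block 6 of 8 members fell (3.41% of genes were called lower). TXNRD1 fell by 0.89 (SE 0.15, adjusted p = 0.00077), HMOX1 fell by 1.73 (SE 0.40, adjusted p = 0.0091), SLC7A11 fell by 1.08 (SE 0.28, adjusted p = 0.017) and SRXN1 fell by 0.60 (SE 0.17, adjusted p = 0.033). NQO1 fell by 0.43 (SE 0.12, adjusted p = 0.032) and GCLM fell by 0.46 (SE 0.14, adjusted p = 0.041). All 3 same-numbered pairs were below 0 in each of the 8 genes. GCLC and FTL did not pass.

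**Figure D3:**
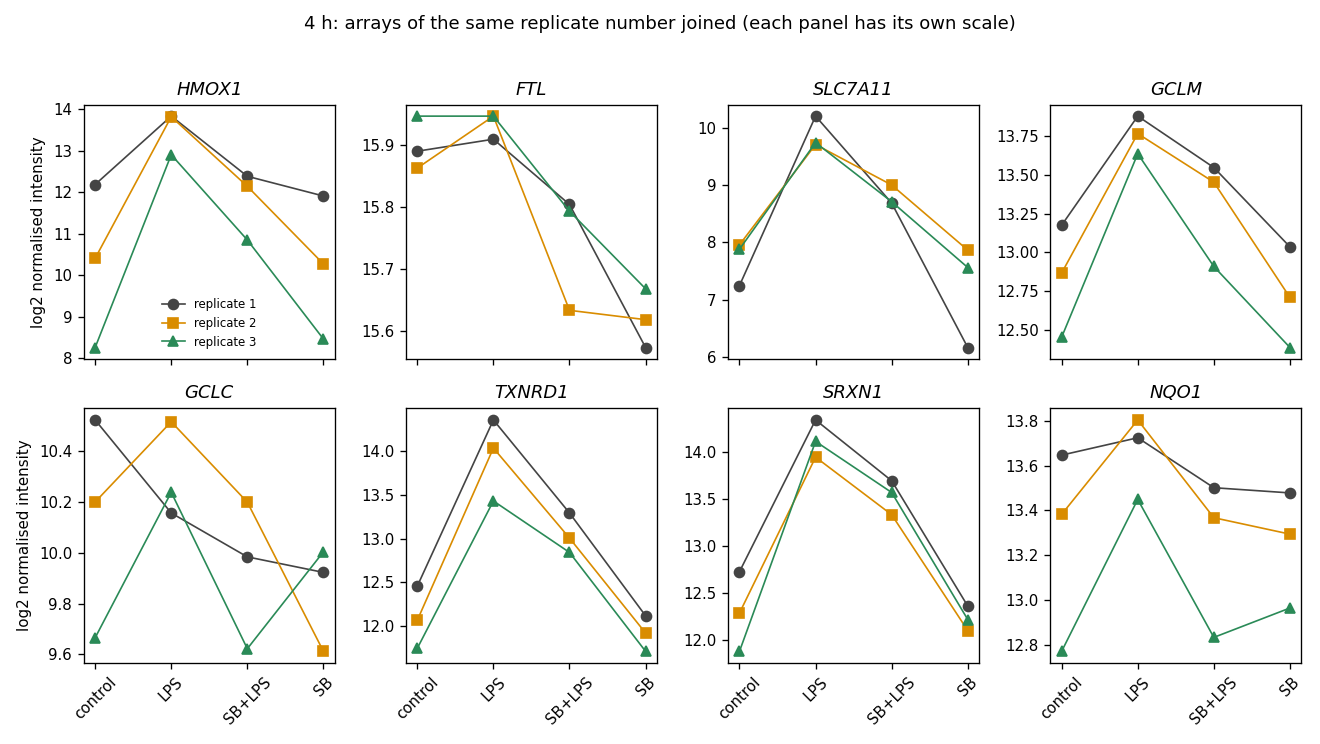
Log2 normalised intensity (vertical axis) of each gene at 4 h in control, LPS, SB+LPS and SB (horizontal axis), with arrays of the same replicate number joined. Each line goes down from LPS to SB+LPS in every panel, and the HMOX1 lines of control and SB start and end far apart.

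At 24 h, where SB+LPS and LPS lie on different slides, 0 of 8 members differed between them (1.03% of genes; 0 members at an unadjusted p under 0.05, limma). HMOX1 read 8.64, 8.87 and 9.19 in SB+LPS and 10.15, 10.10 and 9.00 in LPS, which overlapped (-0.85, interval -2.56 to 0.85). NQO1 read 12.05, 12.04 and 12.14 against 12.49, 12.58 and 12.33 and did not overlap (-0.39, adjusted p = 0.57). This held for 1 of 8 members and 20.9% of all genes. SRXN1, TXNRD1 and FTL differed by 0.20, -0.03 and 0.05.

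LPS still raised members in cells given the inhibitor. At 4 h, with both groups on slide 3, SB+LPS was higher than SB alone in 3 of 8 members (6.04% of genes). SRXN1 read 13.70, 13.33 and 13.57 against 12.36, 12.10 and 12.22 in SB and rose by 1.31 (SE 0.23, adjusted p = 0.00017). SLC7A11 was 8.68, 9.00 and 8.71 against 6.16, 7.86 and 7.56 and rose by 1.60 (SE 0.40, adjusted p = 0.0054). TXNRD1 was 13.29, 13.01 and 12.84 against 12.12, 11.92 and 11.71 and rose by 1.13 (SE 0.25, adjusted p = 0.0021). With the replicate block, 5 of 8 were called (8.58% of genes), adding HMOX1 (1.58, SE 0.40, adjusted p = 0.0047) and GCLM (0.59, SE 0.14, adjusted p = 0.0023). With equal medians, 0 of 8 were called (35.4% of genes either way), with SRXN1 at 0.77 (adjusted p = 0.051) beside an all-gene median of -0.66. SLC7A11 also lost its call without SB replicate 1, the array with its lowest level (1.09, adjusted p = 0.067).

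At 24 h SB+LPS and SB lie on slides 2 and 1. There 0 of 8 members differed between them in limma's main test (5.23% of genes), and NQO1 was the 1 member at an unadjusted p under 0.05. Of the 8 differences 6 were above 0, while GCLM was at -0.33 and SLC7A11 at -0.64. The replicate numbers pair these samples only just by the rule used (lowest correlation 0.104, threshold 0.1). With the block 2 of 8 were higher (5.67% of genes), HMOX1 by 1.49 (SE 0.40, adjusted p = 0.015) and NQO1 by 0.60 (SE 0.12, adjusted p = 0.0012). The spread is shared by all groups, so the block also takes the HMOX1 spread between replicate numbers at 4 h out of this SE. SB+LPS and SB+gp120 at 24 h share slide 2 and pass the same rule narrowly (lowest correlation 0.117). There 0 of 8 passed without the block (4.58% of genes; FTL was the 1 member at an unadjusted p under 0.05), and with it HMOX1 was higher by 1.42 (SE 0.40, adjusted p = 0.022), 1 of 8 members (4.96% of genes). HMOX1 read 8.64, 8.87 and 9.19 in SB+LPS, 7.02, 7.87 and 7.55 in SB+gp120, and 7.23, 7.89 and 7.12 in SB, so its SB+LPS arrays were above both other groups.

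Whether the inhibitor changed the LPS response was tested as the LPS by SB interaction, and 0 of 8 members passed at 4 h (0.14% of genes) or at 24 h (0.133% of genes) in limma, with 0 and 1 members at an unadjusted p under 0.05. HMOX1 was at -1.66 at 4 h (interval -4.07 to 0.76) and -2.17 at 24 h (interval -4.58 to 0.25). TXNRD1 was at -0.72 at 4 h (interval -1.45 to 0.01) and SLC7A11 at -1.30 at 24 h (interval -2.45 to -0.15, adjusted p = 0.75). With the replicate block 0 of 8 passed at 4 h (0.206% of genes either way). HMOX1 was then at -1.66 (interval -2.82 to -0.50, adjusted p = 0.24) and TXNRD1 at -0.72 (interval -1.17 to -0.28, adjusted p = 0.18). NQO1 and SRXN1 were the other members there with an unadjusted p under 0.05. The 6 falls between SB+LPS and LPS at 4 h, from the block fit, are differences between those 2 groups. A change in the size of the LPS response did not pass the test in either fit.

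The inhibitor alone changed 0 of 8 members against control at 4 h (0.14% of genes) and 0 of 8 at 24 h (0.913% of genes), with 0 members at an unadjusted p under 0.05 at either time in limma. SB and control shared slide 1 at 24 h but lay on slides 3 and 2 at 4 h. HMOX1 at 24 h read 7.23, 7.89 and 7.12 in SB and 5.74, 6.55 and 6.00 in control. The groups did not overlap, as in 2 of 8 members (22.9% of all genes), but the difference of 1.32 had an SE of 0.83 and an adjusted p of 0.70. SB+gp120 and gp120 at 24 h lay on slides 2 and 1, so slide and inhibitor cannot be told apart there. HMOX1 read 7.02, 7.87 and 7.55 in SB+gp120 against 6.18, 5.91 and 5.55 in gp120 (1.60, adjusted p = 0.28). In that comparison 0 of 8 were called (4.64% of genes, with 0 members at an unadjusted p under 0.05). The same held at 4 h, on slides 3 and 2 (0.184% of genes, 0 members). HMOX1 had an adjusted p of 0.0445 in a fit of only SB+gp120 and gp120 at 24 h, where its spread was not set by the 4 h groups. The SB difference by time was called in 0 of 8 members (0.0736% of genes; FTL and SLC7A11 were the 2 members at an unadjusted p under 0.05).

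gp120 changed 0 of 8 members at 4 h and 0 of 8 at 24 h, and limma called 0% of all 13582 genes at each time. At an unadjusted p under 0.05 there were 0 members, and 261 genes at 4 h and 405 at 24 h (1.92% and 2.98%). The member differences ranged from -0.27 (GCLC) to 0.09 (TXNRD1) at 4 h and from -0.22 (HMOX1) to 0.41 (SLC7A11) at 24 h. For NQO1, one of the members with the narrowest intervals, the 95% interval was -0.48 to 0.34 at 4 h and -0.38 to 0.45 at 24 h. For HMOX1 it was -1.64 to 1.78 and -1.92 to 1.49, which leaves changes of over 1 unit undetected in this fit. With the replicate block, which pairs these samples at 4 h, the HMOX1 interval at 4 h was -0.75 to 0.89. The gp120 difference by time was called in 0 members and 0% of genes, with 342 genes at an unadjusted p under 0.05.

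Of the 8 members, 4 to 7 were lower at 24 h than at 4 h, depending on the treatment. In control cells 6 of 8 were lower (5.07% of genes were called lower). GCLM read 10.07, 10.42 and 10.33 at 24 h and 13.18, 12.87 and 12.45 at 4 h, 5.89-fold lower (-2.56, SE 0.27, adjusted p = 8.7e-07). SRXN1 read 9.55, 9.97 and 9.85 against 12.73, 12.29 and 11.88, 5.68-fold lower (-2.51, SE 0.23, adjusted p = 1.3e-07). In both genes the lowest 4 h array was about 2 units above the highest 24 h array. HMOX1 (5.74, 6.55 and 6.00 against 12.19, 10.41 and 8.26) fell by 4.19 (SE 0.83, adjusted p = 0.0019). NQO1 fell by 1.80 (SE 0.20), TXNRD1 by 1.47 (SE 0.25) and GCLC by 1.02 (SE 0.22), with adjusted p of 1.7e-06, 0.00047 and 0.0036. SLC7A11 was at -1.16 (adjusted p = 0.060) and FTL at -0.29 (adjusted p = 0.23).

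The other treatments gave 6 of 8 members lower in gp120 (4.78% of genes), 7 in LPS (13.3%), 5 in SB (2.5%), 4 in SB+gp120 (3.14%) and 6 in SB+LPS (11.2%). GCLM, SRXN1, NQO1 and TXNRD1 were lower in all 6 treatments. In LPS, SRXN1 was 15.4-fold lower (-3.94), HMOX1 13.6-fold (-3.77), GCLM 10.4-fold (-3.38), TXNRD1 7.28-fold (-2.86) and SLC7A11 6.47-fold (-2.69). SLC7A11 was called lower in LPS and in SB+LPS (-2.21) and not in the other 4 treatments, where it lay between -1.16 and 0.04. HMOX1 was called in 5 treatments and was at -2.24 (adjusted p = 0.092) in SB+gp120. With the replicate number as a random block HMOX1 in SB+gp120 (adjusted p = 0.030) and SLC7A11 in control (adjusted p = 0.033) were called, and GCLC in LPS was not (adjusted p = 0.052). GCLC was called in control, gp120 and LPS, and FTL in 0 of 6. GCLC in LPS (-0.59, adjusted p = 0.042) and HMOX1 in SB (-2.80, adjusted p = 0.047) lost their calls in 5 of 6 fits that left out 1 array each. Over all 18 alternatives run, HMOX1 in SB kept its call in 5 and GCLC in LPS in 7. HMOX1 in SB was lost without background correction (-2.21) and with the authors' log2 values (-2.27), among others. HMOX1 in SB+LPS lost its call without SB+LPS replicate 1 of 4 h (-2.60, adjusted p = 0.054), and GCLC in control without control replicate 1 of 4 h (-0.83, adjusted p = 0.051). GCLC in gp120 did so without gp120 replicate 1 of 4 h (-0.60) or replicate 2 of 24 h (-0.80).

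Each treatment's 2 times lay on different slides, so time was also read within slide 2, between SB+gp120 at 24 h and gp120 at 4 h, groups that differ in the inhibitor as well. There 5 of 8 members were lower (4.31% of genes). GCLM read 9.99, 10.85 and 10.88 against 13.30, 12.59 and 12.26, and was lower by -2.14 (adjusted p = 5.3e-06). SRXN1 was at -2.21 (adjusted p = 2.5e-07), TXNRD1 at -1.57, NQO1 at -1.45 and HMOX1 at -2.87 (adjusted p = 0.026). The HMOX1 call was lost without gp120 replicate 1 or 2 or SB+gp120 replicate 1 or 3, with values of -2.91 to -1.99. With slide as a block, the control comparison called 0 of 8 members and 0% of genes, with values of -3.34 for HMOX1, -2.85 for SRXN1, -2.57 for GCLM, -2.01 for TXNRD1 and -1.60 for NQO1. With equal medians GCLM and SRXN1 stayed called in all 6 treatments, while calls were lost for TXNRD1 in SB and SB+gp120 (-1.01 and -1.04), for NQO1 in SB+LPS (-0.09), for HMOX1 in SB and SB+LPS (-2.63 and -1.66) and for GCLC in gp120 and LPS (-0.76 and -0.21). SLC7A11 was then called lower in control (-1.62, adjusted p = 0.015), FTL in SB+LPS was called higher (0.55, adjusted p = 0.022), and GCLC in SB+LPS turned to 1.00 higher. In SB+LPS between times the all-gene median was 1.02 in that setting, with 8595 of 13582 genes called either way. The FTL and GCLC values both lay below that median.

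**Figure D4:**
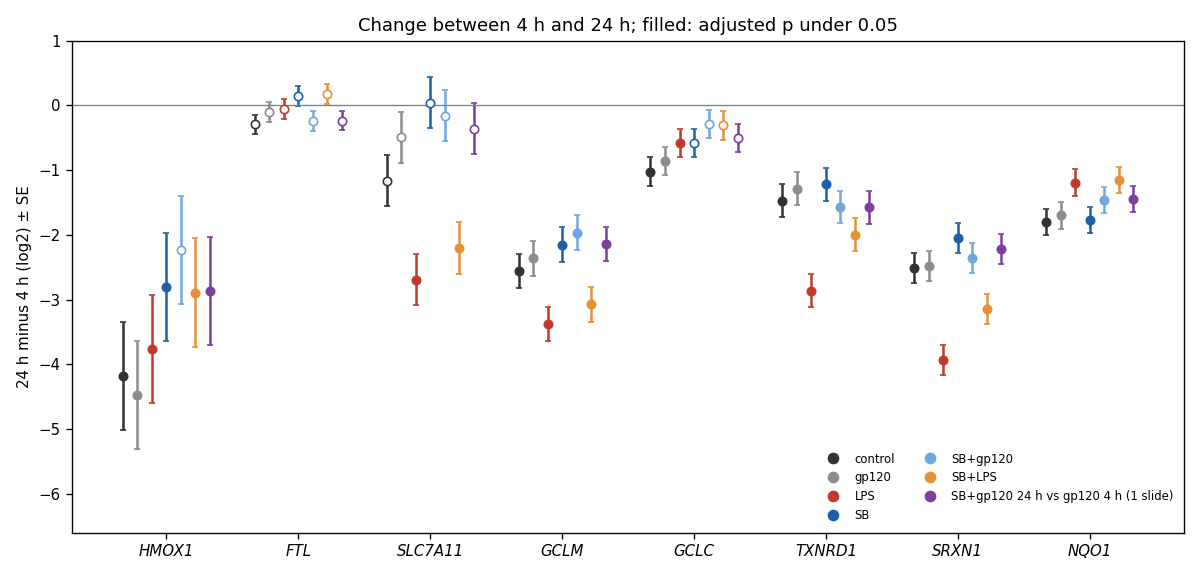
Level at 24 h minus level at 4 h in log2 units (vertical axis) with its SE, for each gene in 6 treatments and, in purple, between SB+gp120 at 24 h and gp120 at 4 h, which share a slide; filled points have an adjusted p under 0.05. GCLM, SRXN1, NQO1 and TXNRD1 are filled and below -1 in all 7 comparisons, and FTL lies between -0.29 and 0.18.

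At 4 h HMOX1 varied more between arrays of 1 group than any other member, with a median SD of 1.68 over the 6 groups. At 24 h its median SD was 0.42, below that of SLC7A11 (0.47). The HMOX1 SD at 4 h was 1.97 in control and 0.53 in LPS, and at 24 h no group exceeded 0.65. In all 4 groups without LPS at 4 h the arrays with the same replicate number had similar levels. Those numbered 1 read 12.19, 12.12, 11.91 and 11.50 in control, gp120, SB and SB+gp120, those numbered 2 read 10.41, 10.53, 10.27 and 9.43, and those numbered 3 read 8.26, 8.41, 8.46 and 8.25. Over 3 units of HMOX1 thus separated samples of 1 treatment, where LPS minus control was 3.24, and what the replicate numbers stand for was not given in the labels. GCLM, NQO1 and TXNRD1 ranked the 3 arrays in the same way in these 4 groups (12.45 to 13.18, 12.77 to 13.65 and 11.75 to 12.46 in control), whereas SLC7A11 was lowest in the array numbered 1 of each.

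The genes that control NRF2 were taken as a list of 10, of which 8 were tested; BACH1 and MAFK were not. After 4 h of LPS 5 of 8 were higher (10.5% of all genes) and 0 lower (16.2%). The list median was 1.04 against -0.09 over all genes. MAFF, a small MAF partner, rose by 2.62, SQSTM1, a target that also binds KEAP1, by 1.61, KEAP1 by 1.48 and NFE2L2 by 1.22 (adjusted p from 6.0e-07 to 0.00062). At 24 h 4 were higher, against 6.6% of all genes (MAFF 1.07, SQSTM1 0.90, NFE2L1 0.79, NFE2L2 0.76), and KEAP1 was at -0.13 (adjusted p = 0.87). The LPS difference was lower at 24 h than at 4 h for KEAP1 (-1.61), MAFF (-1.55) and MAFG (-1.23), against 4.87% of all genes. NFE2L2 was at -0.46 (adjusted p = 0.26). NFE2L2 read 12.37 ± 0.06 in control, 13.59 ± 0.12 in LPS and 13.15 ± 0.39 in SB+LPS at 4 h (SD, n = 3). Between SB+LPS and LPS at 4 h 0 of 8 regulators differed, against 2.16% of all genes (NFE2L2 -0.44, KEAP1 -0.67, adjusted p = 0.21 and 0.30). In cells given the inhibitor, LPS raised 6 of 8 at 4 h (6.04% of all genes), NFE2L2 by 0.84 and KEAP1 by 0.90, with a list median of 0.79. With equal medians 2 of 8 were called there (MAFF and SQSTM1), against 35.4% of all genes either way, the list median being 0.07. Between control at 24 h and 4 h, SQSTM1 alone was called, lower by -1.12 (5.07% of all genes were lower), with NFE2L2 at -0.30 and KEAP1 at -0.25. With equal medians 2 of 8 regulators were higher after 4 h of LPS (MAFF 1.93, SQSTM1 1.06), with NFE2L2 at 0.54 (adjusted p = 0.12), KEAP1 at 0.63 and MAFG at -0.03. After 24 h 0 were (NFE2L2 0.70, adjusted p = 0.25), and 0 had an LPS difference that changed with time. In that setting 47.7% of all genes were called either way at 4 h, 692 of 13582 at 24 h and 11.2% by time. With slide as a block only NFE2L2 was called at 4 h (adjusted p = 0.021), against 3.13% of all genes either way, KEAP1 being at 0.16.

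Of 20 other known NRF2 targets, 15 were tested. After 4 h of LPS 5 were higher and 0 lower (10.5% and 16.2% of all genes), with a median of 0.36 against -0.09 over all genes. GSR, the glutathione reductase, rose by 0.90, ME1, a source of NADPH, by 0.72, PRDX1, a peroxiredoxin, by 0.62 and TALDO1, of the pentose phosphate pathway, by 0.61. With the replicate block 8 were higher (13.5% of all genes), and with slide as a block 0 (3.13% either way). With equal medians 0 were higher, and the 4 named genes lay between 0.01 and 0.04. With equal medians 2 of the 15 were lower (47.7% of all genes were called either way). At 24 h ME1 (1.02) and PRDX1 (0.48) were higher and EPHX1, an epoxide hydrolase, was lower (-1.22), against 6.6% of all genes higher and 5.28% lower. Between LPS with and without the inhibitor at 4 h, when 1.16% of all genes were lower, PRDX1 passed at -0.64 (SE 0.14, adjusted p = 0.013). With equal medians it did not (-0.89, adjusted p = 0.29). With the replicate block 4 genes of the 5 lists were lower there (3.41% of all genes). They were PRDX1, GSR (-0.66, SE 0.17), and, of iron handling, SLC40A1 (-1.64, SE 0.33) and PCBP1, an iron chaperone (-0.38, SE 0.11). PRDX1 read 14.16 ± 0.17 in SB+LPS, 14.80 ± 0.07 in LPS and 14.18 ± 0.03 in control (SD, n = 3). Between control at 24 h and 4 h ME1 (-1.59), GSR (-1.09) and PGD, of the pentose phosphate pathway (-0.78), were lower, 3 of 15 against 5.07% of all genes. With equal medians these 3 stayed called and, of the 24 h LPS calls, ME1 alone (0.97).

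Of the 9 tested genes of iron handling, 2 were higher and 2 lower after 4 h of LPS, against 10.5% of all genes higher and 16.2% lower. LPS raised SLC11A2 (1.24) and SLC39A14 (0.94), both iron importers, and lowered STEAP3, a ferrireductase (-1.08), and PCBP2, an iron chaperone (-0.89). At 24 h, when 5.28% of all genes were called lower, SLC11A2 was higher (1.47) and SLC40A1, the iron exporter ferroportin, lower (-2.03, SE 0.66, adjusted p = 0.042). Of 6 tested genes of heme degradation and transport 0 were called after 4 h of LPS, and 1 after 24 h, CD163, the hemoglobin scavenger receptor, which was detected on 0 of 3 control arrays and 3 of 3 LPS arrays. SLC48A1, a heme transporter, was lower at 24 h than at 4 h in control (-1.37), and BLVRA, which reduces biliverdin, higher (0.52; 4.26% of all genes were called higher). Of 12 other antioxidant enzymes, 1 was higher and 1 lower after 4 h of LPS. After 24 h 3 were higher and 1 lower (6.6% and 5.28% of all genes), and 1 of these rises is not named here. SOD2, the mitochondrial superoxide dismutase, rose by 4.25 at 4 h and 2.96 at 24 h. GLRX, a glutaredoxin, was lower at 4 h (-1.62) and higher at 24 h (1.39), and CAT, catalase, was lower at 24 h (-1.43). The list medians of these 3 lists lay between -0.14 and 0.09 at both times. With equal medians, after 4 h of LPS, 0 genes were higher and 5 lower for iron handling, 0 and 2 for heme, and 1 and 6 for the other antioxidant enzymes. In that setting 47.7% of all genes were called either way, and the all-gene median was -0.71. The SOD2 calls were kept with equal medians (3.65 and 2.95) and with slide as a block (4.32 at 4 h), whereas after 4 h of LPS SLC11A2 and SLC39A14 were at 0.35 and 0.05 with equal medians and GLRX at -0.71 (adjusted p = 0.59) with slide as a block. SLC40A1 was at -1.90 (adjusted p = 0.14) with equal medians.

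**Figure D5:**
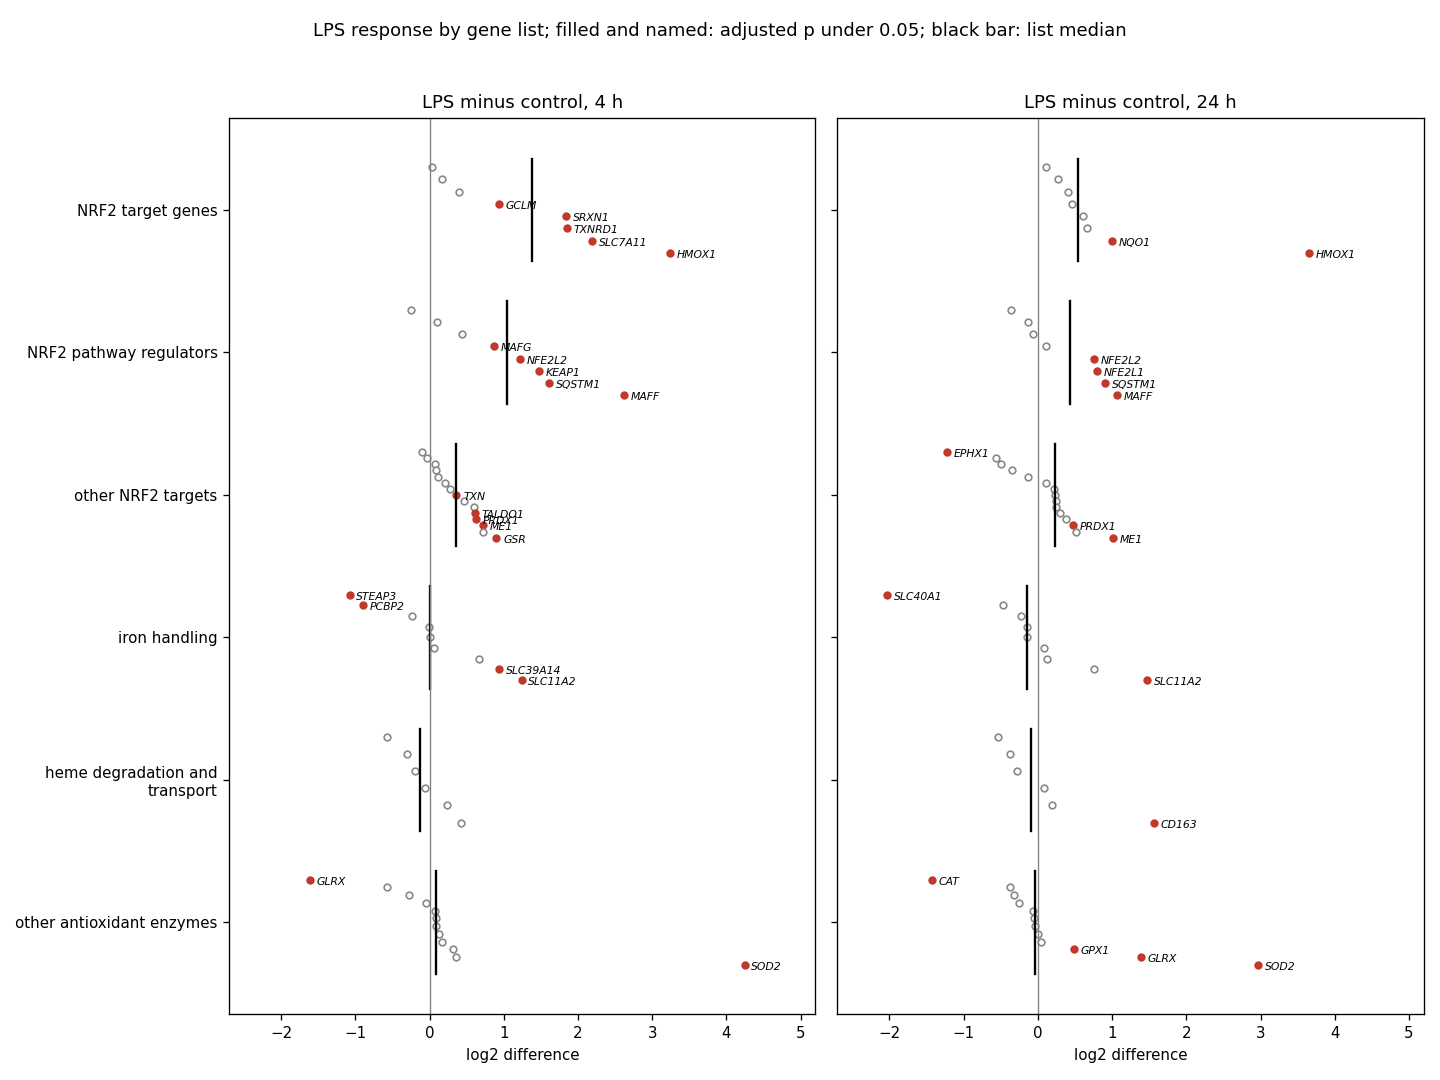
LPS minus control in log2 units (horizontal axis) at 4 h and 24 h for the measured NRF2 target genes and 5 lists of related genes (vertical axis), 1 point per gene; red, named points have an adjusted p under 0.05 and black bars are list medians. At 4 h the medians of the target genes and of the pathway regulators are above 1, and SOD2 is the rightmost point among other antioxidant enzymes.

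For each member the 2 genes outside the set with the most similar profile were found by the correlation of the 12 group means among 13574 genes, as a description only. They were MSC (0.98) and PANX2 (0.97) for HMOX1, BCAR3 and CFAP70 for SLC7A11 (0.97 and 0.96), SLC48A1 and N4BP2L2 for GCLM (0.98 each), TICAM2 and ZNF366 for GCLC (0.96 and 0.95), PITPNA and ZC3HAV1 for TXNRD1 (0.99 and 0.98), DNTTIP2 and CHPF2 for SRXN1 (0.99 each), N4BP2L2 and TMEM168 for NQO1 (0.97 each) and CCDC117 and SPATA9 for FTL (0.94 and 0.88). Of these, SLC48A1 is a heme transporter of the lists above. In 4 members a second probe was detected, and where the brightest probe was called it had the same sign: 8 of 8 comparisons for NQO1 (8 called by the second probe too), 8 of 8 for GCLM (7 called), 10 of 10 for TXNRD1 (9 called) and 3 of 3 for GCLC (2 called). The second probe did not call GCLM in LPS against control at 4 h (1.21, adjusted p = 0.067), TXNRD1 in the LPS response by time (-0.83, adjusted p = 0.18) or GCLC in LPS between times (-0.59, adjusted p = 0.10). It alone called NQO1 in LPS against control at 4 h (0.99, adjusted p = 0.015, against 0.39) and GCLC between times in SB (-1.19, adjusted p = 0.0086) and within slide 2 (-0.84, adjusted p = 0.046). For GCLC in LPS against control at 4 h the probes had opposite signs (-0.33 and 0.17), and neither was called. In bulk RNA, fewer cells expressing a gene and less RNA per cell cannot be told apart.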

How the data were processed

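The 36 THP-1 samples were measured on Illumina HumanHT-12 v4 BeadChips. The authors deposited a non-normalized table of 47222 probes which, per the file headers, pairs every array's raw intensity with its detection p-value; 72 further columns were not used. The authors' deposited value table holds log2 values, which matched the log2 raw intensities after quantile normalisation to within 0.021; their offset and centring are otherwise not stated.

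The neqc function corrected the background, normalised by quantiles and took log2 (limma 3.58.1, R 4.3.3; offset 16, background from detection p-values). Probes with a detection p under 0.05 on at least 3 arrays were kept (26473); 30112 probes had 1 symbol, 8 several and 17102 none, and 30073 were matched to RefSeq gene names by gene ID. Each gene took its brightest probe, giving 13582 genes. One mean per group was fitted over all 36 arrays with lmFit and eBayes; p-values are two-sided and Benjamini-Hochberg adjusted within a comparison over all genes (threshold 0.05), and the fit was tested on simulated data. An exact permutation test of 3 against 3 arrays cannot go below p = 0.1, so none is given.

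Replicate numbers were taken to pair samples where every same-numbered pair deviated together (correlation over 0.1 across genes): this held in 6 of 6 comparisons at 4 h (from 0.12) and 2 of 7 at 24 h (from 0.0055). The members are named throughout. From each list of related genes called members with the largest differences are named, up to 4 though not in every case, with NFE2L2 and KEAP1. The members and lists were chosen with earlier results of these data known. The comparisons of 24 h with 4 h in treated cells and the SB and gp120 interactions with time were added after the data were seen, as was recounting the lists under other scaling and blocks. Alternatives were background correction, normalisation, detection filter, probe choice, variance model, slide and replicate blocks, the groups in the fit and leaving out arrays. The slide fit held stimulus, inhibitor, time, their pairwise joint effects and slide. Figures were drawn with matplotlib 3.10.9.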

Additional observations from a re-analysis of the deposited data

Results flagged for a closer look

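SRXN1 and TXNRD1 differed in their LPS response between the times by a test of the difference itself. The LPS minus control difference of SRXN1 at 24 h minus that at 4 h was -1.43 (SE 0.33, adjusted p = 0.0037, limma interaction), from 1.84 at 4 h to 0.40 at 24 h. That of TXNRD1 was -1.39 (SE 0.36, adjusted p = 0.0098), from 1.85 to 0.46. In both genes the LPS and control arrays did not overlap at either time, which also held for 38.8% of all genes at 4 h and 34.8% at 24 h. Both calls were lost with equal medians (SRXN1 -0.82, TXNRD1 -0.78, adjusted p = 0.19 and 0.23), and the second TXNRD1 probe was at -0.83 (adjusted p = 0.18). The 4 h groups lie on slides 2 and 3 and the 24 h groups on slide 1, and the part of slide in these differences was not tested beyond the block fit given in the report.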

How the results depend on the processing

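The counts of members called were the same or within 1.5 times in most alternatives; those that moved are these. With the replicate block the count went to 4 in LPS against control at 24 h (from 2, with GCLC and TXNRD1 added, in samples the numbers do not pair), 6 in SB+LPS against LPS at 4 h (from 0), 5 and 2 in SB+LPS against SB at 4 h and 24 h (from 3 and 0), 1 in SB+gp120 against gp120 at 24 h and 1 in SB+LPS against SB+gp120 at 24 h (from 0), and 5 in the LPS response by time (from 2). That block changed no other count past that ratio. With it 9.36% of all genes were higher in LPS against control at 24 h, and 6.38% in SB+gp120 against gp120 at 24 h. The random replicate block used between times (consensus correlation 0.215) moved no count past that ratio, though it added 2 single calls and lost 1, as the report gives. With slide as a block the count was 0 in LPS against control at 4 h (from 5), in the LPS response by time and in control between times (from 6), 2 in gp120 (from 6), 3 in SB (from 5) and 1 in SB+LPS between times (from 6). Of all 13582 genes, 6 were called there in gp120, 70 in SB and 83 in SB+LPS between times. With equal medians the count was 0 in SB+LPS against SB at 4 h (35.4% of all genes), 1 in the LPS response by time (11.2%) and 3 in SB between times (123 of 13582 genes). GCLC in SB+LPS between times went from -0.31 to 1.00 (adjusted p = 0.016) beside an all-gene median of 1.02. In SB+LPS against LPS at 4 h, 2 members were called without background correction and 2 with the authors' log2 values (TXNRD1 and SLC7A11), and 1 with trend and robust variances (TXNRD1). With only the groups compared in the fit 1, 2 and 1 were called in SB+gp120 against gp120, SB+LPS against SB and SB+LPS against SB+gp120 at 24 h. Leaving out single arrays gave 3 to 6 members in LPS against control at 4 h (3 without control replicate 3) and 0 to 1 in SB+LPS against LPS at 4 h (1 without LPS replicate 3). For background correction, the authors' values, variance model, groups in the fit and single arrays, the shares of all genes are not given here. The causes were not tested, except that a smaller fit has fewer samples. Arrays number 3 a group, which limits the precision of each value; HMOX1 in gp120 and SLC7A11 in control, both at 24 h, were detected on 2 of 3 arrays.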
